A study of Mus musculus with 6 samples.

Results

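The carboxylesterases are serine hydrolases that cut ester and amide bonds, and the mouse genes fall into subfamilies named Ces1 to Ces5. The 10 genes described here, Ces1c, Ces1d, Ces1e, Ces1f, Ces1g, Ces2a, Ces2c, Ces2e, Ces3a and Ces3b, were chosen by symbol among the 23282 rows of a gene count table, in which 9 further rows carry a Ces symbol. Primary hepatocytes from the livers of C57BL6/N mice were allowed to attach for 3 h and then either left without treatment (control, 3 samples) or given recombinant IL-1β for 24 h (3 samples), and the labels name no other allele or agent in either group. The time that the controls spent in culture is not reported here. If it differed from that of the treated cells, it cannot be told apart from IL-1β. RNA 3′ ends were read by QuantSeq, single-end, 75 nt per read. A dose of recombinant cytokine is stated for another hepatocyte experiment of the study, but it is not tied to the sequenced cultures and was not assumed for them. The animals' age and whether the samples of a group came from separate animals are not given in the sources used here, so p-values measure the spread between these samples, which may be technical. The design text mentions 2 samples in each group, 3 were deposited, and all 6 were used.

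In the liver these enzymes line the lumen of the endoplasmic reticulum, where most are held by a C-terminal retention signal, and they hydrolyse drugs, pesticides and fatty acyl esters. Ces1 enzymes favour substrates with a small alcohol and a large acyl group, and Ces2 enzymes the reverse. Several also act on stored triglyceride. Ces1d, known as triacylglycerol hydrolase, releases fatty acids from lipid droplets for the assembly of very low density lipoprotein (VLDL). Ces1c lacks the retention signal and is secreted into rodent plasma. Ces1e, known as egasyn, holds β-glucuronidase in the endoplasmic reticulum.

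The libraries held 9538741 to 11105408 counts, and the ribosomal RNA precursor Rn45s took 11.7% to 14.2% of the counts in the controls and 11.9% to 12.7% after IL-1β. Levels are given as CPM, counts per library total after that total is adjusted by the library's TMM factor, which ran from 0.976 to 1.04. A level of 3 counts, taken as the limit of detection for counting error alone, equals 0.269 to 0.321 CPM. Markers of secreted hepatocyte proteins were abundant, with albumin (Alb) at 16200 ± 516 CPM (SD, n = 3) in control cells. Several enzyme markers of the list were low in the same controls, with mean levels of 0.717 CPM for Ass1, 2.65 for Cps1, 3.22 for Tat, 5.94 for Arg1 and 7.64 for Hpd, and Ppp1r1a was at 0 counts in every library. Cyp2e1, also an enzyme marker of the list, was higher in these controls, at 166 ± 3.06 CPM (SD, n = 3). Of 11 tested hepatocyte markers, led in abundance by Alb, Fgb, Gc and Apoa1, 7 fell and none rose. The summed level of 13 of the 14 listed genes was 29834 to 30652 CPM in the controls and 24346 to 26192 CPM after IL-1β. No row carried the symbol Tf, the remaining marker of the list. Macrophage markers summed to 248 to 280 CPM in the controls and 254 to 287 CPM after IL-1β, mostly from Cd68, Ctss, Cd5l and Cd74, and 0 of 11 tested passed. Among markers of Kupffer cells, Clec4f and Timd4 had 0 to 27 counts per library, Marco 32 to 68 and Cd5l 150 to 224. Endothelial markers, led by Eng, Lyve1, Cdh5 and Pecam1, summed to 88.8 to 96.0 CPM and 85.5 to 90.0 CPM, with Lyve1 higher and Kdr and Clec4g lower, and stellate cell markers, led by Sparc, Dcn, Col3a1 and Col1a2, to 41.8 to 44.4 CPM and 43.7 to 47.5 CPM, with 0 of 3 tested passing. Cholangiocyte markers, led by Spp1 and Sox9, summed to 316 to 329 CPM and 236 to 240 CPM, with Spp1 the 1 of 2 tested that fell. Krt19 had 2 to 6 counts in the controls and 0 after IL-1β, Krt7 had 0 to 2 counts per library, and Epcam was at 0 counts in every control. Enterocyte and adipocyte markers, led by Fabp4, Vil1 and Fabp2, summed to 8.41 to 12.9 CPM and 5.76 to 9.39 CPM, and Alpi, Sis, Adipoq, Plin1 and Lep were at 0 counts in every library. Beside these marker counts, 6.44% of all tested genes were called lower and 6.97% higher. The part of these markers in the results below was not tested. In bulk samples fewer cells of a type and less RNA per cell cannot be told apart.

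The 10 genes lie on chromosome 8 (GRCm38) in a pair of arrays. The 5 Ces1 genes stand on the minus strand between positions 93099016 and 93337209, a span of 0.238 Mb, in the order Ces1c, Ces1d, Ces1e, Ces1f and Ces1g. The Ces2 and Ces3 genes stand on the plus strand between 104734003 and 105093591, a span of 0.36 Mb, after a gap of 11.397 Mb. Ces1d, at 93166072 to 93197804, has Ces1c (93099016 to 93131283) on one side and Ces1e (93201218 to 93229619) on the other. Ces2c, at 104847068 to 104854482, is followed by the pseudogene Ces2d-ps at 104867424 to 104874082 and then by Ces2e at 104926260 to 104934672.

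The genes are close copies, which bears on what a 75-nt read can tell apart. In transcripts of the GENCODE M21 annotation of GRCm38, aligned bases were identical in 74.4% to 95.4% for the 14 pairs within a subfamily (median 78.0%) and in 62.3% to 66.2% for the 31 pairs between subfamilies. Ces3a and Ces3b were the most alike pair of the 10, at 95.4%. Beyond the 10, Ces2c and Ces2d-ps were 97.6% identical and Ces1c and Ces1b 91.4%. Each stretch of 75 bases in the last 500 bases of a transcript was looked for in all other annotated transcripts. None of the 426 stretches of Ces1d, Ces1e, Ces1f, Ces1g or Ces2e occurred in another gene. In Ces2c 25.1% occurred in Ces2d-ps, in Ces3a 14.3% in Ces3b, in Ces1c 12.9% in Ces1b, in Ces2a 1.17% in Gm7208 and in Ces3b 0.47% in Ces3a. How the counting treated reads that match several genes is not given in the sources used here, so the counts of these 5 genes are uncertain by an unknown share.

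RefSeq promoter windows, from 250 bases before to 50 bases after the start on GRCm38.p6, were found for 7 of the 10 genes (Ces1c, Ces1e, Ces1g, Ces2a, Ces2c, Ces2e and Ces3b) and not for Ces1d, Ces1f and Ces3a. They were searched on both strands for letters of transcription factor sites of the liver and of inflammation. The 4 shown are those of Ces1c, which fell, of Ces2c, which rose, and of Ces2a and Ces2e of the same subfamily, which did not pass the test. Capitals mark the letters found, GGGANTTTC of the NF-κB type or TTGCNNAA of the C/EBP type on either strand.
Ces1c, chr8:93131234-93131533, minus strand: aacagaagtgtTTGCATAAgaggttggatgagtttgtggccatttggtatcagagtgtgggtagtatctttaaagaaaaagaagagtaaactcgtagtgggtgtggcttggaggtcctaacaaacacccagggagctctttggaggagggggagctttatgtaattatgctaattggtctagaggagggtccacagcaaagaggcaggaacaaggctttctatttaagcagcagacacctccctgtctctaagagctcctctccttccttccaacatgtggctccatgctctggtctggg
Ces2a, chr8:104733753-104734052, plus strand: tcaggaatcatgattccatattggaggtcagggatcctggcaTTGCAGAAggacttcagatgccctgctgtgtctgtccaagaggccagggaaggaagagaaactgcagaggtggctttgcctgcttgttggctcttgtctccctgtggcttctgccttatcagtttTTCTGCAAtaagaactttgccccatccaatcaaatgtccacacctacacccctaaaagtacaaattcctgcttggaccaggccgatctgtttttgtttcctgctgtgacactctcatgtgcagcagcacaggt
Ces2c, chr8:104846818-104847117, plus strand: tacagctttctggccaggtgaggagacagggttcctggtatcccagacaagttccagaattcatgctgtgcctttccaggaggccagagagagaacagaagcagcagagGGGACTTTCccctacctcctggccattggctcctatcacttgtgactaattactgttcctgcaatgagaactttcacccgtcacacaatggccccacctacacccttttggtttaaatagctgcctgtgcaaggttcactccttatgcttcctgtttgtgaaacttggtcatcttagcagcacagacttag
Ces2e, chr8:104926010-104926309, plus strand: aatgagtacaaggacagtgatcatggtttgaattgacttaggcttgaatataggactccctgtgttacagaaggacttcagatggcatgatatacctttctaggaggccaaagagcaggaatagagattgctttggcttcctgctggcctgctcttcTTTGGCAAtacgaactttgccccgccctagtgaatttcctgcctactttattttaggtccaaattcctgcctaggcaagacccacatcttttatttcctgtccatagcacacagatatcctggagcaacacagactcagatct
Ces2c held GGGACTTTC from 141 to 133 bases before its start, the 1 of the 7 windows with letters of that type, which 1.11% of all 32851 mouse promoter windows hold. Outside the 10, Ces5a held the same letters on the other strand, GAAAGTCCC, from 52 to 44 bases before its start. Ces5a had 0 counts in every library. No window was found for Ces2d-ps, which rose. The C/EBP letters stood in 3 of the 7 windows, those of Ces1c, Ces2a (at 2 places) and Ces2e, and in 10.8% of all windows. Outside the 10, windows of Ces1b and Ces4a held them too. Ces1b, which did not pass the test, held the same TTGCATAA as Ces1c. Its windows were 93.4% and 95.4% identical to that of Ces1c over the aligned bases. The letters CAAAGTCCA of an HNF4 site (0.47% of all windows) and TTCNNNGAA of a STAT site (8.3%) were in none of the 7. The marked letters do not overlap each other, and the Ces2c and Ces2a windows were 69.1% identical over 291 aligned bases. A match describes letters and no binding was measured.

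Because QuantSeq reads about 1 fragment from the end of each mRNA, counts are not divided by transcript length. CPM can be set side by side between genes subject to the shared stretches above and to where each gene is taken to end. The deposited positions of Ces3a and Ces3b end at 105058414 and 105093591, before their RefSeq ends at 105061928 and 105093929. Whether reads between those positions were counted was not tested. In control hepatocytes the level spanned 82.9-fold, from Ces1c at 433 ± 25.1 CPM to Ces1f at 5.22 ± 0.712 CPM (SD, n = 3). Ces1c stood at rank 275 by control CPM among 11657 tested genes, Ces3a at rank 395 and Ces1f at rank 9249. The order in controls was Ces1c, Ces3a, Ces3b, Ces2a, Ces2e, Ces2c, Ces1e, Ces1d, Ces1g and Ces1f, and the only neighbours in it whose samples overlapped were Ces1d and Ces1g. After IL-1β the order was Ces1c, Ces3a, Ces3b, Ces2a, Ces2c, Ces2e, Ces1d, Ces1e, Ces1g and Ces1f, with Ces2c now above Ces2e and Ces1d above Ces1e, and the only neighbours that overlapped were Ces1e and Ces1g.

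**Figure D1:**
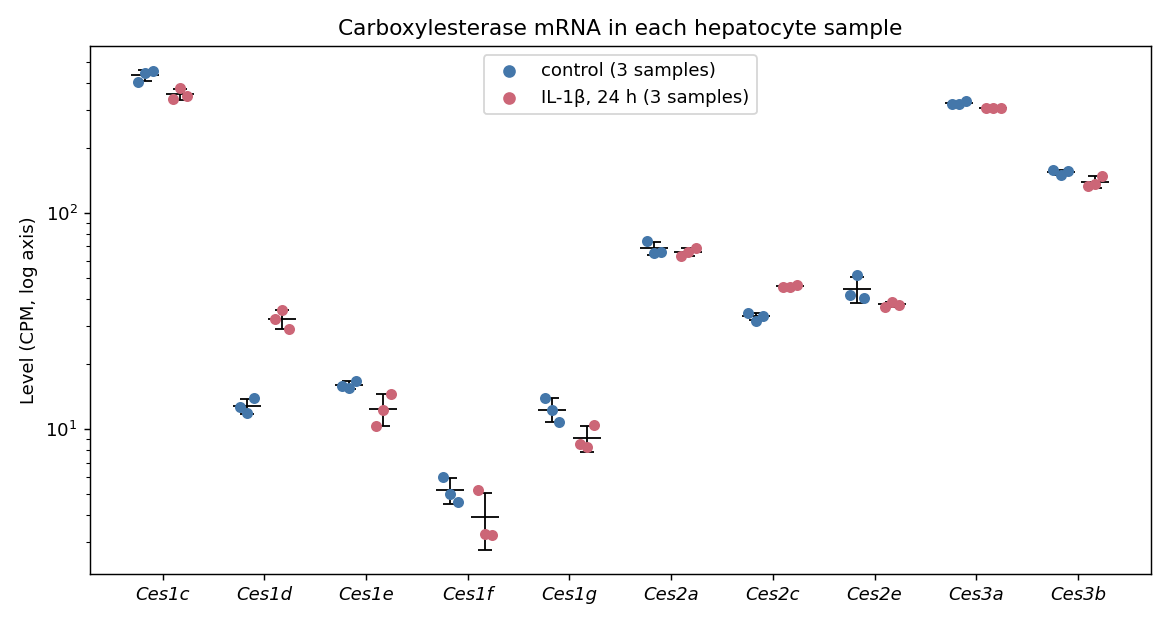
Level of each of the 10 carboxylesterase genes (CPM, log axis) in 3 control samples (blue) and 3 samples given IL-1β for 24 h (red), with the mean and SD as black marks. Ces1d and Ces2c are the genes whose IL-1β samples all lie above the controls, and Ces1c, Ces3a and Ces3b are the most abundant in both groups.

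The question of the comparison was which transcripts change when hepatocytes meet IL-1β, a cytokine of inflamed liver. Of the 10 genes 2 rose, Ces1d by 2.52-fold and Ces2c by 1.38-fold, and 1 fell, Ces1c by 18.2% (edgeR's quasi-likelihood test, Benjamini-Hochberg adjusted p below 0.05 over 11657 genes). The other 7 did not pass, and their log2 fold changes were all below 0, from -0.06 to -0.43. Over all tested genes 6.97% were called higher and 6.44% lower. Scaling by total counts alone moved the split over all genes from 812 higher and 751 lower to 662 and 1008, and left the calls on the 10 genes as they were. The IL-1β samples lay below all controls in 6 of the 10 genes, against 14.2% of tested genes, and above all controls in 2, against 14%. For 3 samples against 3 the exact permutation test cannot give a two-sided p below 0.1, and each of these 8 genes had that value. The median log2 fold change of the 10 was -0.19, beside -0.0018 over all tested genes.

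**Figure D2:**
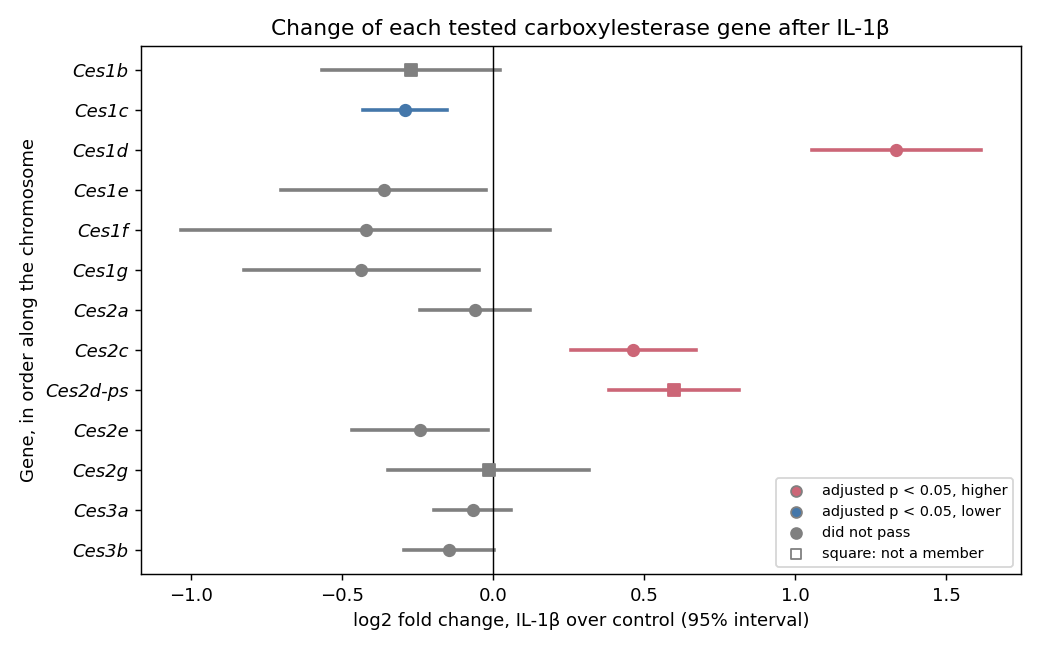
Log2 fold change (IL-1β over control) with its 95% interval from edgeR for the 13 carboxylesterase genes with enough counts, in their order along chromosome 8, members as circles and other genes of the family as squares. Ces1d, Ces2c and Ces2d-ps lie to the right of 0 in red, Ces1c to the left in blue, and the grey genes did not pass an adjusted p of 0.05.

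Ces1d, the triacylglycerol hydrolase, had the largest change of the 10. Its level was 12.7, 11.9 and 13.9 CPM in the controls and 32.4, 35.6 and 29.0 CPM after IL-1β. The lowest IL-1β sample stood above the highest control, and the raw counts were 133 to 138 in the controls and 303 to 371 after IL-1β. The log2 fold change was 1.33 (standard error 0.135, 95% interval 1.06 to 1.61, edgeR adjusted p = 4.90e-08). Its call held under all the alternatives tried, with adjusted p from 2.27e-18 to 0.0168. No stretch of its last 500 bases is shared with another annotated gene.

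The neighbours of Ces1d in the array did not rise with it. Ces1c, the secreted plasma esterase, was at 404, 442 and 452 CPM in the controls and at 338, 376 and 347 CPM after IL-1β. All 3 treated samples were below the controls. The log2 fold change was -0.29 (standard error 0.0666, 95% interval -0.43 to -0.15, edgeR adjusted p = 0.00331). An unmoderated gene-by-gene test on log2(CPM + 1) ended this call (adjusted p = 0.124), and over all alternatives the adjusted p ran from 0.000143 to 0.124. In the same samples 7 of 11 tested hepatocyte markers fell, Alb by 12.9% and Gc by 32.9% among them, and 4 did not pass, with differences of -2.49% for Fgb, -2.78% for Hpd, -1.15% for Arg1 and -22.1% for Cps1. The part of these markers in the fall of Ces1c was not tested.

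Ces1e, egasyn, was at 15.8, 15.5 and 16.7 CPM in the controls and at 10.4, 12.3 and 14.6 CPM after IL-1β. The groups did not overlap, but the third IL-1β sample came close to the controls, and the log2 fold change of -0.36 did not pass (95% interval -0.70 to -0.02, edgeR adjusted p = 0.177). Its partner β-glucuronidase (Gusb), named here after its values were seen, also did not pass, with 39.9 ± 4.89 CPM in controls and 33.5 ± 1.79 CPM after IL-1β (SD, n = 3) and an edgeR adjusted p of 0.168.

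Ces1g, known in mice for limiting fat synthesis in the liver, was at 13.9, 12.3 and 10.8 CPM in the controls and at 8.55, 8.26 and 10.5 CPM after IL-1β. The lowest control and the highest treated sample were nearly level, and the log2 fold change was -0.43 (95% interval -0.82 to -0.05, edgeR adjusted p = 0.149). Ces1f, the least abundant of the 10, was at 6.01, 5.01 and 4.64 CPM in the controls and at 5.24, 3.27 and 3.25 CPM after IL-1β. Its groups overlapped, and with 34 to 64 counts per library the 95% interval of its log2 fold change, -1.03 to 0.19, was the widest of the 10 (edgeR adjusted p = 0.435). Without the first IL-1β sample the log2 fold change moved from -0.42 to -0.67.

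Within a sample the ratio of Ces1d to Ces1e counts needs no scaling of libraries. It was 0.804, 0.769 and 0.831 in the controls and 3.12, 2.90 and 1.99 after IL-1β. Ces1d was thus the scarcer of these neighbours in every control and the more abundant in every treated sample. The ratio of Ces1d to Ces1c counts was 0.0297 ± 0.00241 in controls and 0.0914 ± 0.00683 after IL-1β (SD, n = 3), again without overlap.

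**Figure D3:**
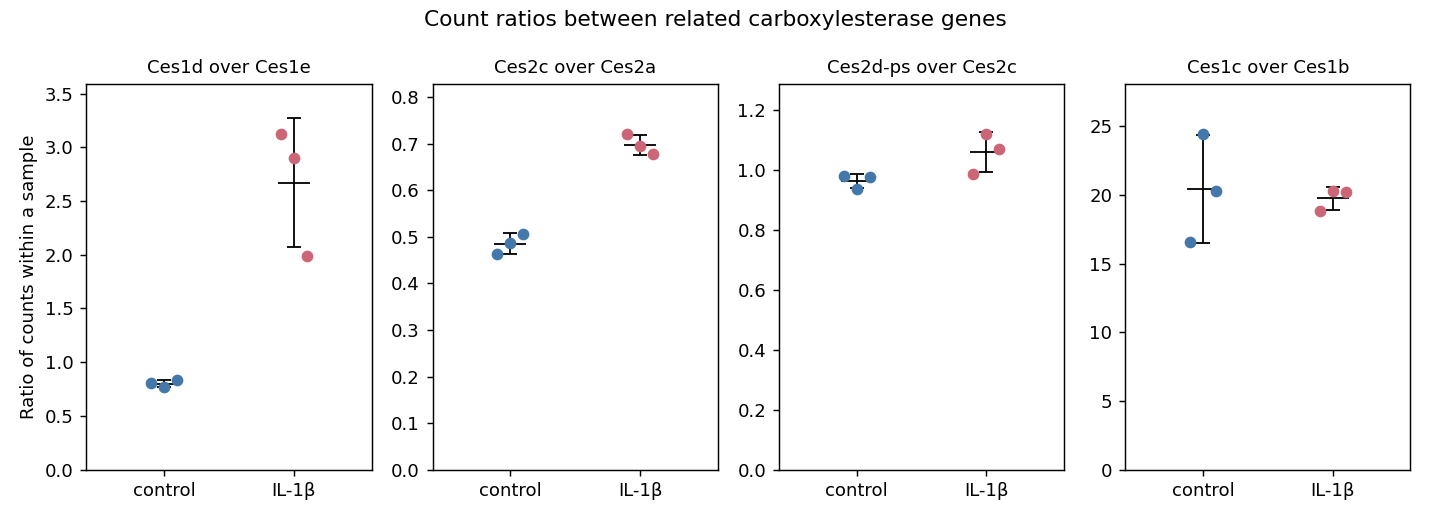
Ratio of the raw counts of related genes within each sample, in 3 control and 3 IL-1β samples, with the mean and SD as black marks and each axis from 0. Ces1d over Ces1e, Ces2c over Ces2a and Ces2d-ps over Ces2c were higher in every IL-1β sample than in any control, and Ces1c over Ces1b overlapped between the groups.

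In the Ces2 subfamily, whose enzymes hydrolyse drugs and also di- and triglycerides in liver and gut, Ces2c rose while Ces2a and Ces2e did not pass. Ces2c was at 34.4, 31.8 and 33.6 CPM in the controls and at 45.5, 45.5 and 46.6 CPM after IL-1β. The treated samples lay close together and all above the controls. The log2 fold change was 0.47 (standard error 0.101, 95% interval 0.26 to 0.67, edgeR adjusted p = 0.00188). The change was under 1.5-fold, as was that of Ces1c, so a threshold at that fold would end both calls. Ces2d-ps, the pseudogene that shares 25.1% of the 3′ stretches of Ces2c, rose as well. Of its own 3′ stretches 47.65% occurred in Ces2c, Gm6831 or Gm8798. It was at 33.7, 29.8 and 32.7 CPM in the controls and at 45.0, 51.0 and 49.8 CPM after IL-1β, without overlap. Its log2 fold change was 0.60 (standard error 0.104, edgeR adjusted p = 0.000156). The ratio of Ces2d-ps to Ces2c counts was 0.938 to 0.981 in the controls and 0.988 to 1.12 after IL-1β, so their counts stayed near parity in every sample. Summed over the pair, the level was 65.3 ± 3.37 CPM in controls and 94.5 ± 3.42 CPM after IL-1β (SD, n = 3), a log2 ratio of 0.53. The sum leaves aside how reads were split between the pair, but not reads that also match Gm6831 or Gm8798. How much of either rise belongs to the other gene cannot be told apart in these counts.

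Ces2a was at 74.3, 65.3 and 66.2 CPM in the controls and at 63.2, 65.6 and 68.6 CPM after IL-1β. The groups overlapped, and the log2 fold change of -0.06 had a 95% interval of -0.24 to 0.12 (edgeR adjusted p = 0.761). Without the first control sample it was 0.00089. Ces2e was at 41.9, 51.7 and 40.3 CPM in the controls and at 36.8, 38.9 and 37.6 CPM after IL-1β. The groups did not overlap and the second control stood above the others, and the log2 fold change of -0.24 did not pass (95% interval -0.47 to -0.02, edgeR adjusted p = 0.171). Without that control it was -0.12. The ratio of Ces2c to Ces2a counts, free of library scaling, was 0.463, 0.486 and 0.507 in the controls and 0.721, 0.694 and 0.679 after IL-1β.

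The Ces3 genes, known chiefly from liver, were abundant, and neither passed the test. Ces3a was at 318, 317 and 328 CPM in the controls and at 306, 306 and 307 CPM after IL-1β. The treated samples were nearly equal and all below the controls, yet the log2 fold change was -0.07 (95% interval -0.19 to 0.06, edgeR adjusted p = 0.588). Ces3b was at 158, 149 and 155 CPM in the controls and at 133, 136 and 149 CPM after IL-1β. Its highest treated sample came within 1 CPM of its lowest control, and the log2 fold change was -0.15 (95% interval -0.29 to 0.0038, edgeR adjusted p = 0.228). For the sum of this near-identical pair the log2 ratio was -0.09, with 475 ± 8.53 CPM in controls and 445 ± 9.01 CPM after IL-1β (SD, n = 3).

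Of the 9 further Ces rows, 3 had enough counts for a test, and 1 of these, Ces2d-ps, rose. Ces1b, next to Ces1c in the array and 91.4% identical to it, was at 21.6 ± 3.23 CPM in controls and 17.9 ± 0.673 CPM after IL-1β (SD, n = 3). Its groups overlapped and its log2 fold change of -0.27 did not pass (95% interval -0.56 to 0.02, edgeR adjusted p = 0.265). With each sample left out it ran from -0.38 without the second control to -0.17 without the first. Ces2g was at 14.6 ± 1.56 CPM in controls and 14.4 ± 1.68 CPM after IL-1β (SD, n = 3), with a log2 fold change of -0.01 (95% interval -0.35 to 0.32, edgeR adjusted p = 0.976). Ces1a, Ces2b, Ces2f, Ces2h, Ces4a and Ces5a had 0 to 3 counts in each library, at or under the limit of detection at this depth. Of these, Ces2f and Ces5a were at 0 counts throughout. The deposited positions of Ces2f and Ces2b end at 104955962 and 104838652, before their RefSeq ends at 104961130 and 104840093. Whether reads beyond the deposited ends were counted was not tested. Ces1c with Ces1b, summed because they share 3′ stretches, gave a log2 ratio of -0.29, the same to 2 decimals as Ces1c alone. Ces1c had 16.55 to 24.45 times the counts of Ces1b per library, so this sum could hardly differ from Ces1c. It does not show how shared reads bear on Ces1b.

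Added up, the 10 genes held 0.096% to 0.116% of all counts in a library. Their sum was 1079, 1102 and 1121 CPM in the controls and 978, 1029 and 1013 CPM after IL-1β, without overlap, a log2 ratio of -0.13, or 8.53% lower. The differences of the 8 genes with lower means came to -126.0 CPM in all, -78.9 CPM of it from Ces1c, and those of the 2 genes with higher means to 32.2 CPM, 19.5 CPM of it from Ces1d. The Ces1 sum had a log2 ratio of -0.22, the Ces3 sum of -0.09 and the Ces2 sum of 0.03. The Ces1 and Ces3 sums did not overlap between groups and the Ces2 sum did. The Ces2 ratio was -0.0046 without the third control and 0.055 without the first IL-1β sample, and scaling by total counts alone put it at -0.02, so its direction is not fixed by these samples. No test was made of these sums.

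Shares within the family were computed in each sample from the raw counts. Ces1c, Ces3a and Ces3b together held 79.3% to 83.4% of the 10 genes' counts in every library. The share of Ces1c was 39.3 ± 1.59% in controls and 35.1 ± 1.27% after IL-1β (SD, n = 3). The share of Ces1d was 1.17 ± 0.0803% and 3.21 ± 0.313% (SD, n = 3), and that of Ces2c 3.02 ± 0.153% and 4.56 ± 0.119% (SD, n = 3). The shares of Ces1c, Ces1d, Ces2c and Ces3a did not overlap between the groups. The share of Ces3a was 28.8% to 29.5% in controls and 29.8% to 31.2% after IL-1β. A share within the family does not depend on the scaling of the libraries, but a change in an abundant gene moves the shares of the others.

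**Figure D4:**
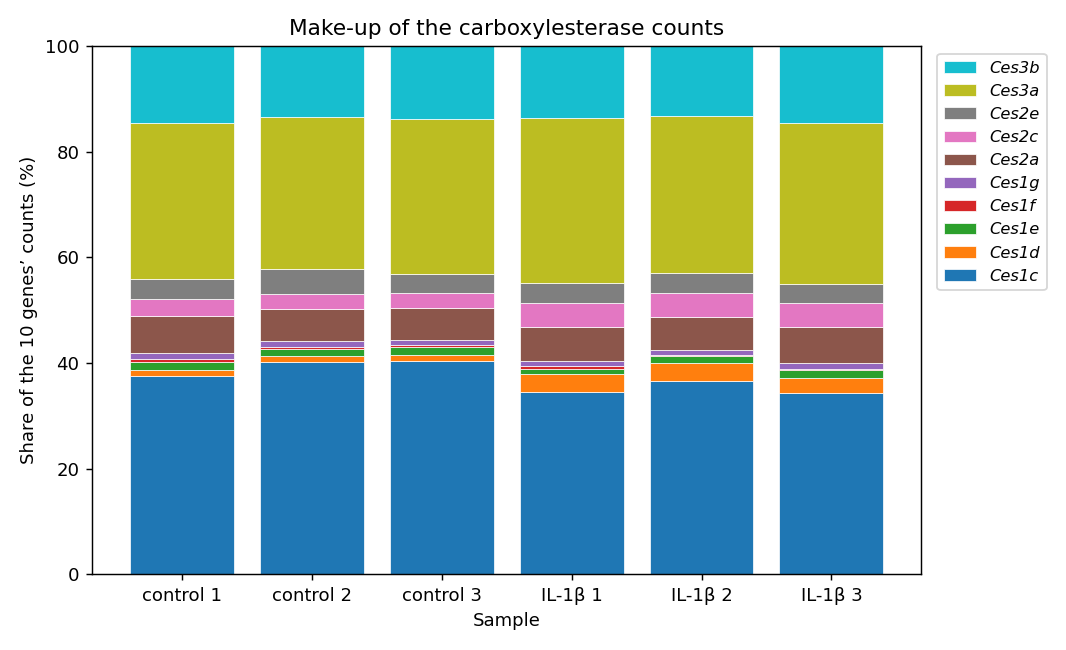
Share of each gene in the summed raw counts of the 10 carboxylesterase genes (%), one bar per sample, controls on the left and IL-1β samples on the right. Ces1d (orange) widens from between 1.08% and 1.24% to between 2.86% and 3.47%, and Ces1c (blue, bottom) narrows from between 37.5% and 40.3% to between 34.3% and 36.6%.

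Among 22 tested esterases and lipases outside the family 8 fell and 1 rose, against 6.44% lower and 6.97% higher over all tested genes. Their median log2 fold change was -0.23, beside -0.0018 over all tested genes. Those that fell included Siae, a sialic acid esterase, by 0.91 on the log2 scale (edgeR adjusted p = 1.19e-05), Acot2, a mitochondrial acyl-CoA thioesterase, by 0.42, Nceh1, a cholesteryl ester hydrolase, by 0.58, Abhd12, a lysophospholipase, by 0.62, and Lipc, hepatic lipase, by 0.54. Aadac, a microsomal esterase, Bche, the plasma butyrylcholinesterase, and Pon1, the paraoxonase of plasma lipoproteins, were the others that fell, with folds of 0.793, 0.764 and 0.801. Esd, which hydrolyses S-formylglutathione, was the gene that rose, by 13.8% (edgeR adjusted p = 0.0434). Lypla2 and Lipa, the most abundant that did not pass, had log2 fold changes of -0.03 and -0.17. Without the third IL-1β sample the list's 9 calls became 5, and by the unmoderated test 2.

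Of 17 tested regulators of xenobiotic and lipid genes 3 were lower and 2 higher, against 6.44% lower and 6.97% higher over all tested genes. Hnf4a, a nuclear receptor that maintains hepatocyte gene expression, was at 84.6, 91.2 and 87.2 CPM in the controls and at 41.7, 43.8 and 42.6 CPM after IL-1β. It fell by 1.04 on the log2 scale (edgeR adjusted p = 1.62e-09). Nr1i2, the pregnane X receptor, which in liver induces drug-metabolising genes, fell by 0.77 (edgeR adjusted p = 0.0331), from 9.46 ± 0.779 to 5.57 ± 1.79 CPM (SD, n = 3). Nr1i3, the constitutive androstane receptor, had 0 to 6 counts per library and was not tested. Pparg, a receptor for fatty acid derivatives, fell by 1.28, while Nfe2l2, which drives the response to oxidants and electrophiles, rose by 0.47 and Ahr, the dioxin receptor, by 0.47. Esrra and Rxra, the most abundant that did not pass, had log2 fold changes of 0.08 and -0.01. The median of the list was -0.10. By the unmoderated test 2 genes of the list passed.

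Of 19 tested genes of triglyceride storage and VLDL assembly, the pathway that Ces1d serves, 8 fell and 2 rose. The shares over all tested genes were 6.44% lower and 6.97% higher. The median log2 fold change of the list was -0.26. Dgat2, which makes triglyceride from diglyceride, was at 129, 137 and 149 CPM in the controls and at 865, 801 and 831 CPM after IL-1β, a 6.02-fold rise (edgeR adjusted p = 5.98e-19). Mttp, which loads lipid onto apolipoprotein B, was at 26.9, 25.4 and 25.7 CPM in the controls and at 11.9, 10.9 and 14.1 CPM after IL-1β, and fell by 1.08 on the log2 scale (edgeR adjusted p = 3.95e-06). Apob, the structural protein of VLDL, fell by 0.53 and Plin2, a lipid droplet coat protein, by 0.46, and Surf4, a cargo receptor for lipoprotein export, rose by 0.42. Tm6sf2, Plin5, Cideb, Apoe and Lpin2 were the other genes that fell. Apoc3 and Plin3, the most abundant that did not pass, had log2 fold changes of -0.27 and 0.19. The rise of Ces1d thus stood beside a larger rise of Dgat2 and falls of Mttp and Apob in the same samples. By the unmoderated test 3 genes of the list passed.

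A list of 8 tested genes covered protein retention and folding in the endoplasmic reticulum, where most carboxylesterases reside. It included Gusb, the partner of Ces1e. Of the 8, 2 rose and none fell. The shares over all tested genes were 6.97% higher and 6.44% lower. The median log2 fold change of the list was -0.07. Hspa5, the chaperone BiP, rose by 28.5% (edgeR adjusted p = 5.39e-05) and Calr, calreticulin, by 26.7% (edgeR adjusted p = 0.000367). P4hb, a protein disulfide isomerase, and Kdelr1, a receptor that returns retained proteins, did not pass, with log2 fold changes of -0.09 and -0.13.

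**Figure D5:**
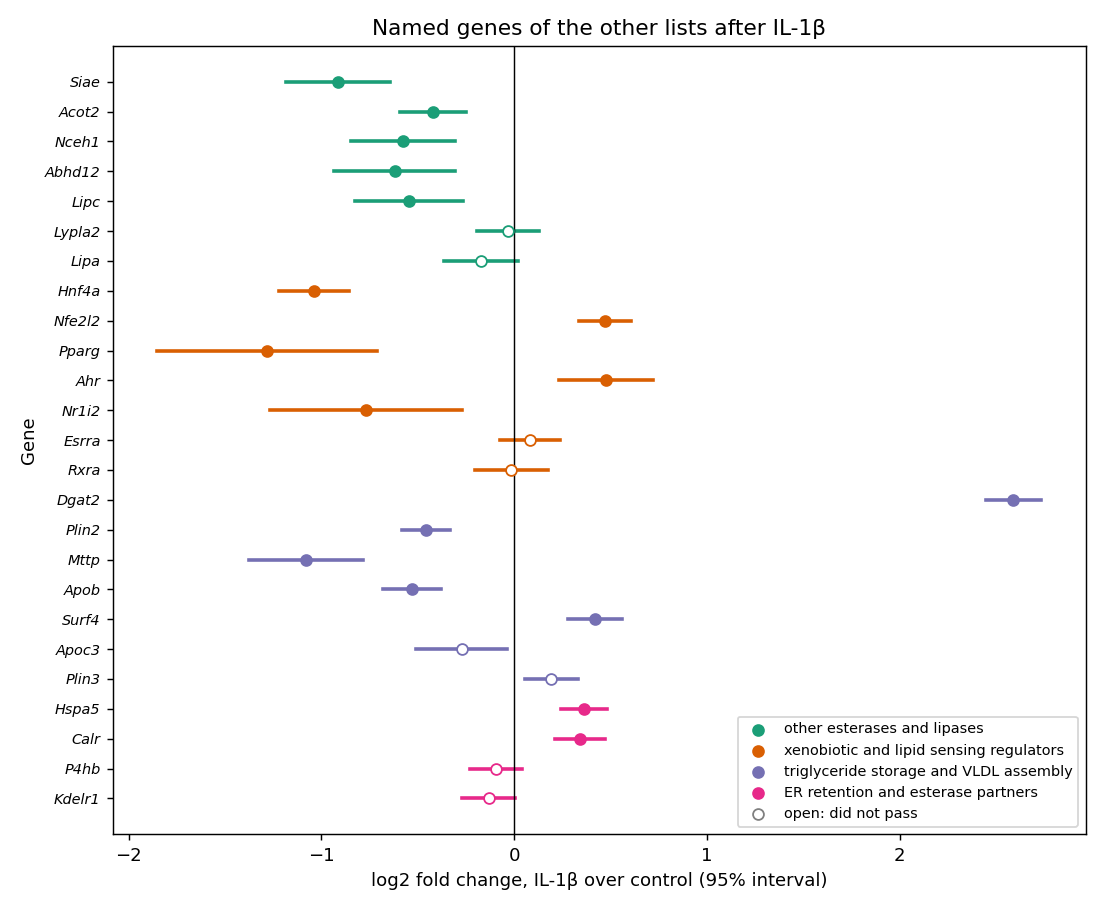
Log2 fold change (IL-1β over control) with its 95% interval from edgeR for the named genes of 4 other lists, coloured by list, with filled points for an adjusted p below 0.05 and open points for the rest. Dgat2 stands apart at 2.59, Pparg lies lowest at -1.28, and Hnf4a, Mttp and Siae lie between -0.91 and -1.08.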

How the data were processed

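RNA of 6 primary mouse hepatocyte samples, 3 control and 3 IL-1β, was sequenced by QuantSeq, and groups were taken from the sample labels. Per the labels the authors aligned reads with Bowtie2 (processing notes name mm10 and GRCm38) and normalized with edgeR (TMM and CPM). They deposited raw read counts per gene, which were used here, beside log2 normalized values, group averages, fold changes and p-values, which were not. The counting tool is not given in the sources used here. Libraries held 9538741 to 11105408 counts.

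Counts were fitted in R 4.3.3 with edgeR 4.0.16 (filterByExpr, TMM, quasi-likelihood test, Benjamini-Hochberg adjustment over 11657 genes), and the script was tested on simulated data. An unpaired Student's test was run as an alternative on log2(CPM + 1). The paper names that test for its statistics in general and does not tie it to these counts. Other alternatives were limma 3.58.1, DESeq2 1.42.0, other scalings and filters, a fold above 1.5, the replicate number as a block, no Rn45s and each sample left out. Levels are CPM. Standard errors were derived from the F statistic and the fold change. Sequences came from GENCODE M21 and RefSeq. The table's gene positions are printed.

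The genes, lists and tests were chosen with earlier results of these data known. Named are the 10 genes, every other Ces row, of each other list up to 5 genes with the smallest adjusted p below 0.05 and the 2 most abundant that did not pass, Hnf4a, Nr1i2 and Nr1i3, of marker lists the 4 most abundant, and Rn45s. An item that this rule selects is not reported here. Other genes named to spell out a small count or to show low and higher markers, and Gusb, were chosen after their values were seen.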

Additional observations from a re-analysis of the deposited data

How the results depend on the processing

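The calls on Ces1d, Ces2c and Ces1c held under both other scalings, DESeq2, limma, both other filters, the replicate block, the removal of Rn45s and of each sample. By Student's test 0 genes were lower (edgeR: 1), and with a fold above 1.5 there were 0 lower and 1 higher, which is Ces1d. The log2 fold change of Ces2a turned to 0.00089 and that of Ces2g to 0.07 without the first control, and that of Ces2g to 0.083 without the first IL-1β sample, where the ranges over left-out samples were -0.091 to 0.00089 for Ces2a and -0.082 to 0.083 for Ces2g. With total counts alone the log2 ratio of summed counts was -0.18 for all 10 genes, -0.024 for Ces2 and -0.15 for Ces3, and with upper-quartile scaling -0.12 for Ces3. By Student's test the calls were 2 of other esterases and lipases, 2 of regulators, 3 of triglyceride storage and VLDL assembly and 1 of retention in the endoplasmic reticulum, and with a fold above 1.5 they were 2, 3, 4 and 0. Calls among other esterases and lipases ranged from 5 to 8 with each sample left out. The cause of these shifts was not tested, apart from the fold threshold, which removes smaller changes by construction. Same-numbered samples of the groups deviated together with correlations of 0.075, 0.0275 and -0.005, and the numbers did not serve as pairs. With the replicate number as a block 1 of the 10 genes was lower and 2 were higher, and no call on them changed. Depth limits Ces1f, with 34 to 64 counts, and the genes with 0 to 3 counts.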
